A study of Mus musculus with 2 samples.

Results

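Genes of mitochondrial oxidative phosphorylation were compared between the proximal intestine of CD36KO mice and that of WT mice. CD36 is a membrane receptor that takes up long-chain fatty acids and binds oxidized lipoproteins and thrombospondin. The genes were taken by name: every probe set assigned to exactly 1 symbol beginning with Nduf, Uqcr, Cox4 to Cox8 or Atp5, or equal to Sdha, Sdhb, Sdhc, Sdhd, Cyc1 or Cycs. This gave 184 probe sets for 92 of the 18194 named genes on the array. The CD36KO group was a pool of RNA from 3 mice with a germline deletion of Cd36 in every tissue, and the WT group was a pool from 3 wild-type mice. Both were on the C57BL/6 background, were fed chow, and are given without an age. Each pool was hybridised to 1 Affymetrix array, so n = 1 per genotype, no test was run, and no difference could be set against the spread between animals or arrays.

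Values are the deposited log2 levels, and a difference is CD36KO minus WT on that scale. Of several probe sets for a gene the one with the highest mean was used. A gene counted as above the expression filter where its higher value reached 4.51, the midpoint of such higher values across the array, and 11981 genes did. A gene was called different at 1.5-fold, a difference of 0.58. Cd36 read 6.02 in CD36KO and 7.68 in WT at the probe set used for it. Its other probe sets read 5.87 in CD36KO and 7.70 in WT, and 3.52 in CD36KO and 4.74 in WT. The positions of these probe sets relative to the deletion are unstated. Control probe sets at the 3' end of actin exceeded those at its 5' end by 1.34 in CD36KO and 2.28 in WT, and those of GAPDH by 0.71 in CD36KO and 1.28 in WT. The pools also differed in markers of gut segment and of other cell types: the 10 proximal small intestine markers were all lower in CD36KO (median -0.98), and the 10 distal markers (median 1.82) and 12 pancreas acinar markers (median 1.87) were all higher. Of all genes above the filter 50.9% were lower. These marker lists were chosen with earlier results of these data known, so a shared direction within a list is a description and no independent result. The table holds no detection calls.

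Oxidative phosphorylation makes most of the ATP of a well-oxygenated cell. Complex I takes electrons from NADH and complex II takes them from succinate. Both pass them through ubiquinone to complex III, and cytochrome c carries them on to complex IV, which reduces oxygen. Complexes I, III and IV pump protons out of the matrix, and complex V, the ATP synthase, lets them back in to make ATP. Most subunits are nuclear-encoded, and mitochondrial DNA encodes the others. In the intestine, enterocytes use this energy for ion pumping, nutrient uptake and the assembly of chylomicrons, and fatty acid oxidation supplies part of the electrons.

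The respiratory chain genes were close to level between the pools, with a small lean to lower values in CD36KO. Of the 92 genes, 88 were above the filter, and 4 were below it in both pools (Ndufb4, Cox4i2, Cox7b2 and Cox8b). None of the 88 was at least 1.5-fold higher in CD36KO, where 5.31% of all genes above the filter were, and 2 were at least 1.5-fold lower, where 3.31% of all genes were. The 2 were Cox7c and Ndufa5. The median difference of the 88 was -0.08, and that of all genes above the filter was -0.0059. The values ran from -0.93 to 0.39, and 69 of the 88 lay within 1.2-fold, a share of 78.4% beside 63.8% of all genes. In whole tissue, fewer cells of a type and less RNA per cell cannot be told apart.

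Of the 88 genes, 62 had a difference below 0 (70.5%), where 50.9% of all genes did. Most of these genes read high on the array, and 70 had a mean level of 10 or more. Of these 70, 54 were below 0 (77.1%), where 56.4% of all 902 genes at such levels were. Their median was -0.11, beside -0.038 for the 902, and 1 of them passed 1.5-fold in either direction, where 9.42% of the 902 did. After removal of the trend of the difference with level, 50 of 88 were below 0 (56.8%), beside 50.2% of all genes. Summed on the linear scale, the signal of the 92 genes was 230063 in CD36KO and 247902 in WT, a ratio of 0.928.

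**Figure D1:**
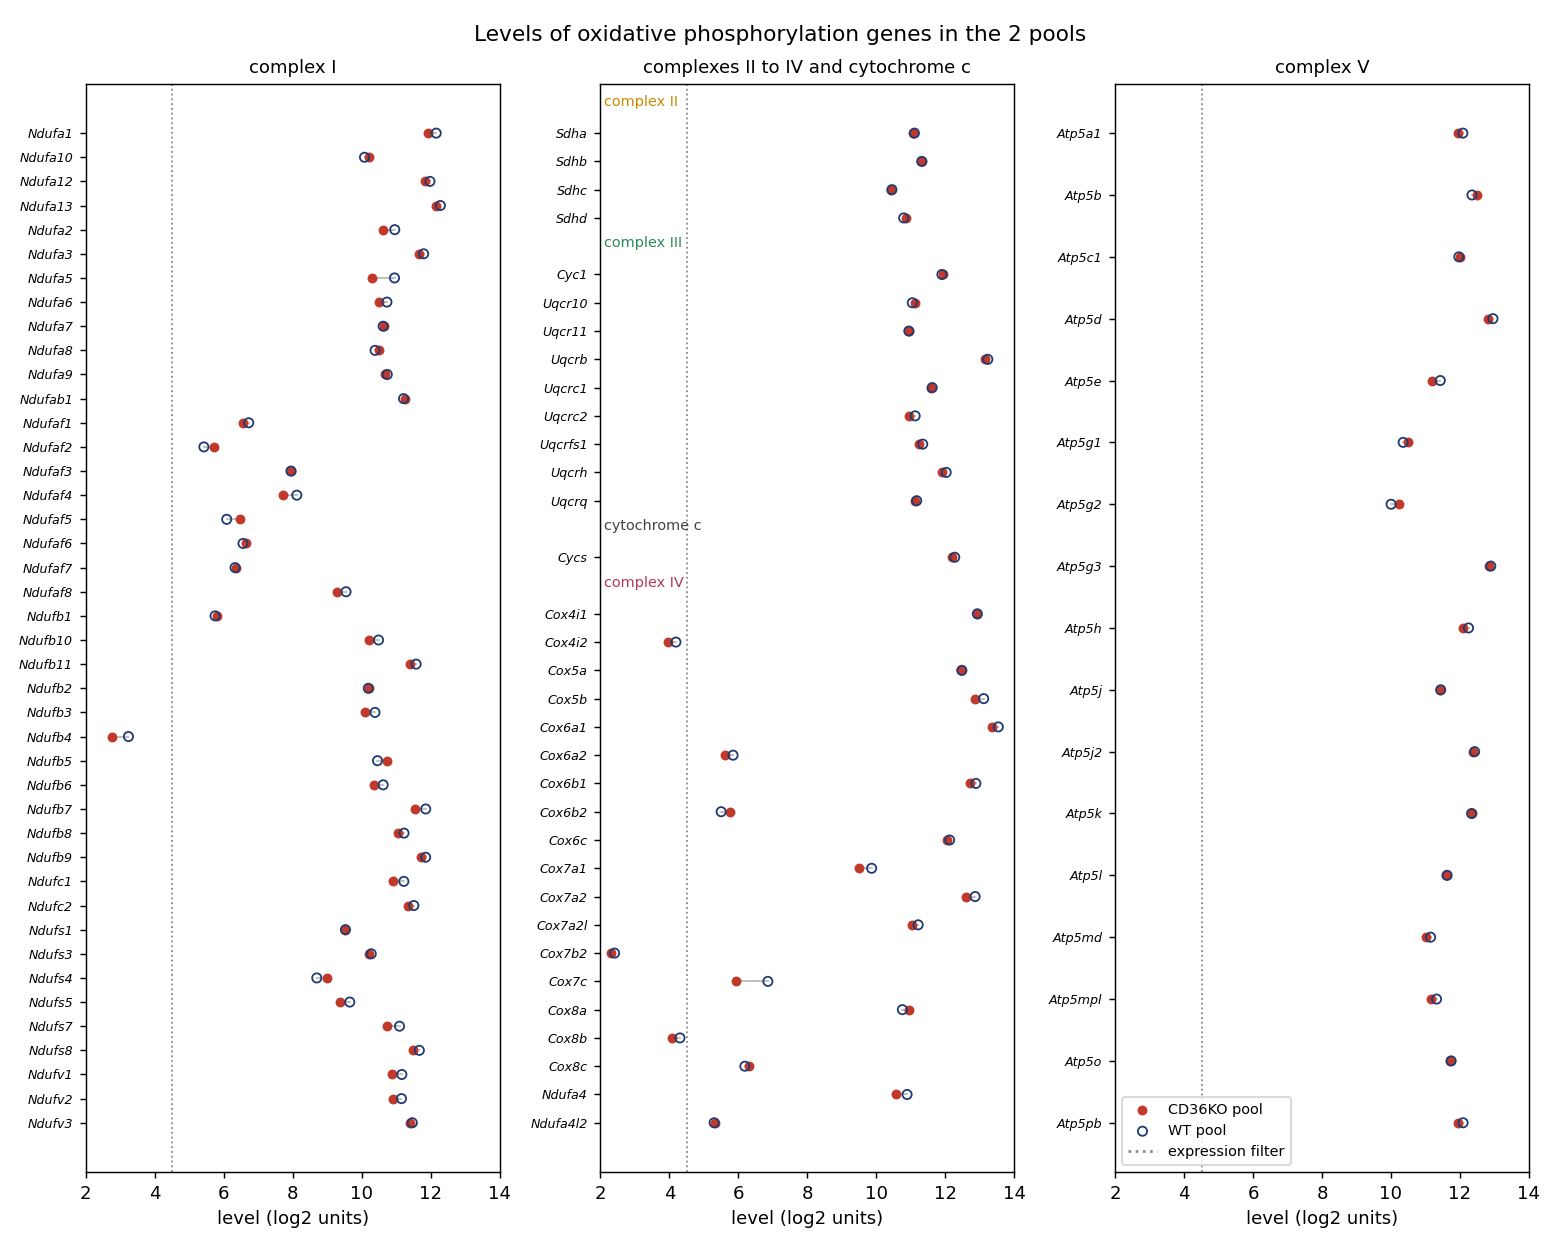
Log2 level of each of the 92 genes in the CD36KO pool (filled red) and in the WT pool (open blue), by complex, 1 array each; the dotted line is the expression filter at 4.51. Cox7c and Ndufa5 are the pairs at least 1.5-fold apart, and Ndufb4, below the filter, is next with a difference of -0.48. Levels of different genes come from different probe sets and are not comparable with each other.

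**Figure D2:**
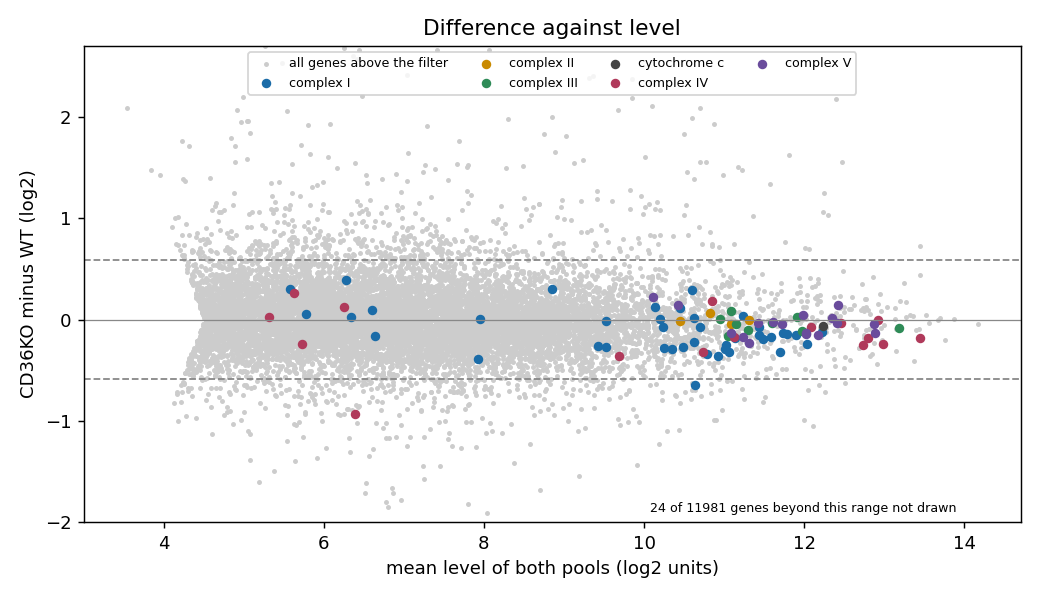
CD36KO minus WT difference (log2) against the mean level of both pools (log2) for all genes above the filter (grey) and the 88 oxidative phosphorylation genes (coloured by complex); dashed lines mark 1.5-fold, and 24 genes beyond the drawn range are left out. Of the 88 coloured points, 70 have a mean level of 10 or more and 62 lie below 0.

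Complex I, the NADH dehydrogenase, has the most subunits, in an arm that binds NADH, an arm that reduces ubiquinone, and a membrane arm that pumps protons. Without its assembly factors it had 33 subunits above the filter, with a median difference of -0.16, and 25 of them were below 0. The median of all 41 complex I genes was also -0.16, but -0.037 with the probe set of smallest difference for each gene. The NADH-binding arm (median -0.16 over 9 genes), the ubiquinone-binding arm (-0.18 over 5) and the membrane arm (-0.16 over 19) had similar medians. One subunit passed 1.5-fold.

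That subunit was Ndufa5, an accessory protein of the ubiquinone-binding arm. It read 10.31 in CD36KO and 10.95 in WT, a difference of -0.64 (1.56-fold lower). Its other probe set gave -0.35, so both were lower in CD36KO and 1 of them passed 1.5-fold.

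The 6 core subunits measured, most of which carry the flavin or iron-sulphur clusters, were all below WT by less than 1.5-fold. Ndufv1, which binds NADH and the flavin, read 10.87 in CD36KO and 11.16 in WT, and Ndufv2, an iron-sulphur subunit beside it, 10.90 in CD36KO and 11.15 in WT. Ndufs1, the largest iron-sulphur subunit, was level at 9.51 in CD36KO and 9.53 in WT. Of the core subunits Ndufs7, in the ubiquinone arm, had the lowest difference, at 10.74 in CD36KO and 11.10 in WT, a difference of -0.36. Ndufs8 read 11.49 in CD36KO and 11.67 in WT, and Ndufs3 10.20 in CD36KO and 10.28 in WT.

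Some of these directions rest on the probe set read. Ndufs8 had 6 probe sets above the filter, from -0.18 to 0.18, and Ndufv2 had 3, from -0.25 to 0.21. Ndufv1 had one at 0.02. The second probe set of Ndufs7 gave -0.17, with the same sign.

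Among the accessory subunits the differences ran both ways. Ndufs4, which helps hold the NADH-binding arm in place, read 9.001 in CD36KO and 8.697 in WT, a difference of 0.30, the highest of any complex I subunit. Its other probe sets above the filter gave 0.08 and -0.42, and it was the 1 gene of 47 read by several probe sets that had readings of 0.3 or more in both directions. Ndufb5, a membrane arm subunit, differed by 0.29, with -0.12 at its other probe set. On the lower side were Ndufa2 (10.62 in CD36KO and 10.96 in WT), Ndufb7 (11.54 in CD36KO and 11.86 in WT) and Ndufc1 (10.91 in CD36KO and 11.22 in WT). Both probe sets of Ndufb7 and of Ndufc1 were below 0. The membrane arm as a whole ran from -0.32 (Ndufb7) to 0.29 (Ndufb5), with 13 of 19 genes below 0. Ndufb4, a membrane arm gene, was below the filter at 2.76 in CD36KO and 3.24 in WT. It had 1 probe set assigned to its symbol alone, so this reading does not show that the gene was unexpressed. Ndufab1, the mitochondrial acyl carrier protein, was at 0.04 with its highest probe set and at -0.72 and -0.32 with 2 others of low level.

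The assembly factors, which build complex I and are not part of it, had a median of 0.02. Of these 8 genes 3 were below 0 (37.5%), beside 50.9% of all genes. The 5 above 0 include Ndufaf3 (0.007) and Ndufaf7 (0.02), which were level. Among assembly factors outside the name rule, 27 of 36 were below 0. Ndufaf5, an enzyme that modifies a core subunit during assembly, was highest at 6.48 in CD36KO and 6.09 in WT (0.39), the highest difference of all 88 genes. Ndufaf2 read 5.72 in CD36KO and 5.42 in WT (0.30). Ndufaf4 was lowest at 7.73 in CD36KO and 8.12 in WT (-0.39), with -0.25 at its other probe set. The others lay between -0.26 (Ndufaf8) and 0.09 (Ndufaf6).

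**Figure D3:**
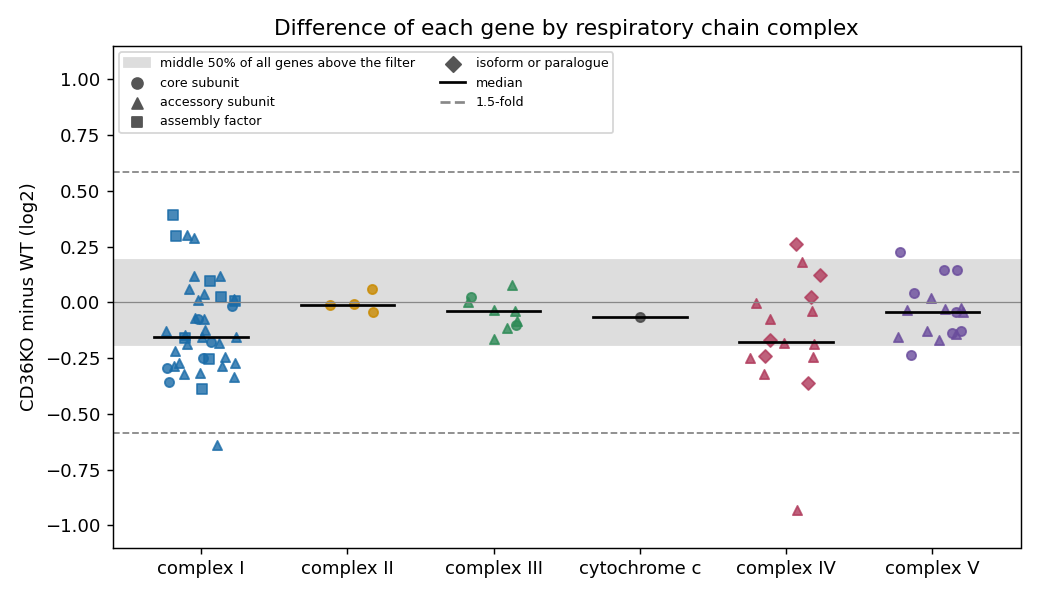
CD36KO minus WT difference (log2) of each of the 88 genes above the filter, by complex, with the marker giving the class of protein, a black bar for the median, a grey band for the middle 50% of all genes above the filter and dashed lines at 1.5-fold. Cox7c at -0.93 and Ndufa5 at -0.64 are the points outside the dashed lines; complexes II, III and V lie within 1.2-fold.

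Complex II, succinate dehydrogenase, is also an enzyme of the citric acid cycle, and all its subunits are nuclear-encoded. Its 4 genes were level, with differences from -0.04 to 0.06. Sdha, the flavin subunit, read 11.06 in CD36KO and 11.10 in WT. Sdhb, the iron-sulphur subunit, read 11.31 in CD36KO and 11.32 in WT. The membrane anchors Sdhc (10.44 in CD36KO and 10.45 in WT) and Sdhd (10.85 in CD36KO and 10.79 in WT) were as close. Other probe sets above the filter gave 0.35 for Sdhc, -0.32 for Sdhd, and -0.25 and 0.03 for Sdha.

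Complex III passes electrons from ubiquinol to cytochrome c, and its 9 genes had a median of -0.04 and a range from -0.17 to 0.08. Cyc1, its cytochrome c1, read 11.92 in CD36KO and 11.90 in WT. Uqcrfs1, the Rieske iron-sulphur protein, read 11.24 in CD36KO and 11.34 in WT. Uqcrc2, a structural core protein, was lowest at 10.96 in CD36KO and 11.13 in WT, with 0.05 at its other probe set. Uqcr10, a small subunit, was highest at 11.12 in CD36KO and 11.04 in WT, with -0.32 and -0.20 at the others. All 9 were within 1.2-fold. Cycs, the mobile carrier cytochrome c, read 12.21 in CD36KO and 12.27 in WT, and its probe sets above the filter ran from -0.08 to 0.10.

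Complex IV, cytochrome c oxidase, has nuclear subunits that surround a catalytic core encoded by mitochondrial DNA, and several exist as tissue isoforms. Its 16 genes above the filter had a median of -0.18, and 12 were below 0. That median was -0.075 without probe sets of x or s suffix, and -0.020 with the probe set of smallest difference for each gene. Cox7c, a small subunit, was lowest of all 88 genes, at 5.92 in CD36KO and 6.86 in WT, a difference of -0.93 (1.91-fold lower). Its other probe set was below the filter, at 3.31 in both pools, so the value rests on 1 reading. That reading comes from a probe set with an s suffix, which may match more than 1 transcript, and Cox7c has no value above the filter when such probe sets are left out.

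The other ubiquitous subunits were closer to WT. Cox4i1, a subunit that regulates the enzyme, read 12.93 in both pools. Cox5a differed by -0.04 and Cox6c by -0.08. Cox6a1 (13.35 in CD36KO and 13.54 in WT), Cox6b1 (12.70 in CD36KO and 12.89 in WT), Cox5b (12.87 in CD36KO and 13.11 in WT) and Cox7a2 (12.61 in CD36KO and 12.86 in WT) were lower by 0.18 to 0.25. Cox8a was the ubiquitous subunit above WT, at 10.94 in CD36KO and 10.75 in WT, with 0.17 and -0.36 at other probe sets. Ndufa4, first assigned to complex I and now placed in complex IV, read 10.57 in CD36KO and 10.89 in WT. Cox7a2l, a relative of Cox7a2, read 11.04 in CD36KO and 11.21 in WT, and all 3 of its probe sets were below 0.

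The isoforms known from heart and skeletal muscle were Cox6a2, Cox7a1 and Cox8b. Cox7a1 read 9.50 in CD36KO and 9.86 in WT, a difference of -0.36. Cox6a2 read 5.60 in CD36KO and 5.85 in WT, and Cox8b was below the filter in both pools. Of 9 markers of striated muscle, 5 were below the filter in both pools (Myh1, Myh4, Myh6, Mb and Tnnt3), and of the other 4 Acta1 differed by -0.64, Actc1 by 0.62, Ckm by -0.04 and Myl1 by -0.02. The part of muscle cells in the Cox6a2 and Cox7a1 values was not tested. All 10 smooth muscle markers were higher in CD36KO, where 50.9% of all genes were lower. Their median was 0.54, and their linear sum was 13956 in CD36KO and 9775 in WT. Of the isoforms known from testis, Cox6b2 differed by 0.26 (5.76 in CD36KO and 5.50 in WT) and Cox8c by 0.12 (6.31 in CD36KO and 6.19 in WT), with -0.22 at its other probe set, and Cox7b2 was below the filter. Ndufa4l2, the paralogue of Ndufa4 induced by low oxygen, read 5.32 in CD36KO and 5.30 in WT.

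Complex V, the ATP synthase, joins a catalytic F1 head to a membrane rotor, the c-ring, through a central shaft, and a peripheral stalk holds the head still. Its 17 genes had a median of -0.04, 12 were below 0, and all were within 1.2-fold. Atp5b, the catalytic beta subunit, read 12.49 in CD36KO and 12.35 in WT. Atp5a1, the alpha subunit that alternates with it, read 11.96 in CD36KO and 12.08 in WT, and other probe sets gave 0.18 and, at low level, -0.84. In the shaft, Atp5c1 read 12.01 in CD36KO and 11.97 in WT, Atp5d read 12.82 in CD36KO and 12.96 in WT, and Atp5e was lowest of the complex at 11.19 in CD36KO and 11.43 in WT. A second probe set of Atp5c1, of low level, gave -0.50.

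The c-ring subunit is encoded by 3 genes that differ in their import peptides and give the same mature protein. Atp5g1 read 10.50 in CD36KO and 10.35 in WT, and Atp5g2 read 10.230 in CD36KO and 10.002 in WT, the highest difference of the complex at 0.23. Atp5g3 was level at 12.85 in CD36KO and 12.89 in WT. The 4 peripheral stalk genes (Atp5h, Atp5j, Atp5o and Atp5pb) ran from -0.16 to -0.03 and the 5 membrane genes (Atp5j2, Atp5k, Atp5l, Atp5md and Atp5mpl) from -0.17 to 0.02.

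Probe sets of the same gene often differed. Among the 47 genes with several probe sets above the filter, the median spread from lowest to highest difference within a gene was 0.23. In 18 of them all probe sets were below 0, in 2 all were above 0, and in 27 they had both signs. Over all 163 probe sets above the filter the median was -0.10, and 109 were below 0.

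**Figure D4:**
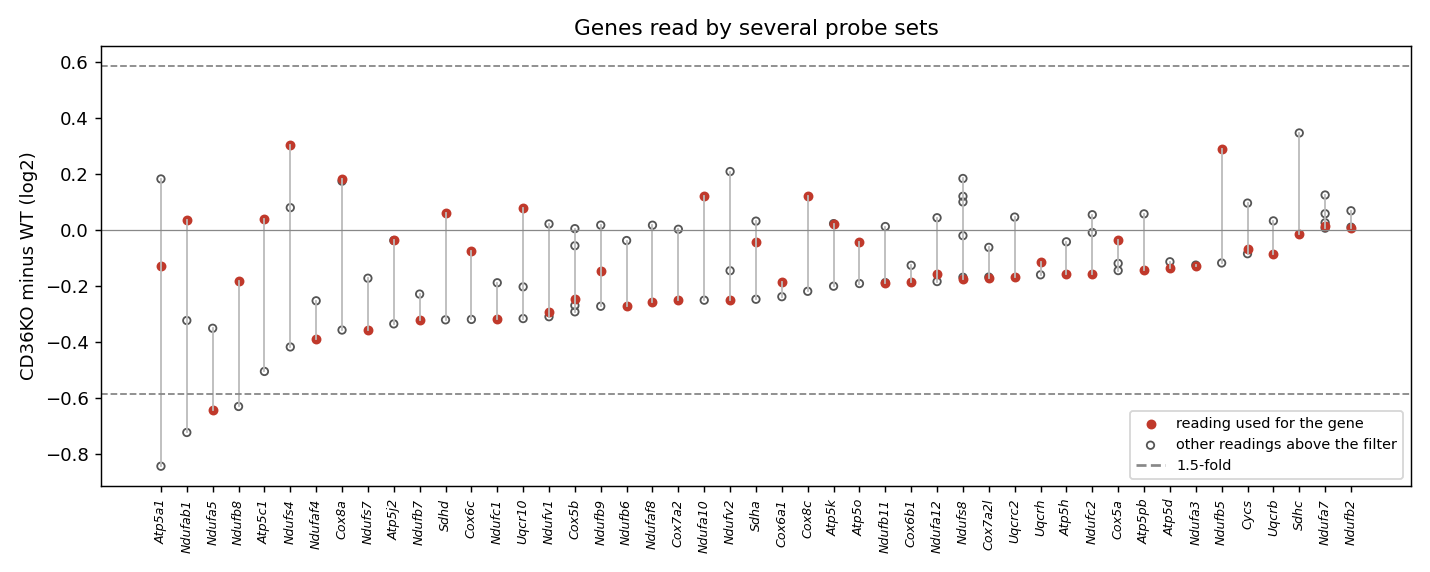
CD36KO minus WT difference (log2) at each probe set above the filter for the 47 genes with several, with the reading used for the gene in red, the others open and dashed lines at 1.5-fold. Vertical lines join readings of the same gene; 27 of the 47 lines cross 0.

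Nuclear genes of the respiratory chain are known targets of the transcription factors NRF1, GABPA (an ETS family factor) and YY1. RefSeq promoter windows (GRCm38.p6), from 250 bases before to 50 after a gene's start, were matched by gene identifier for 75 of the 92 genes. They were searched on both strands for GCATGCGC (NRF1), CCGGAAGT (ETS) and AAGATGGC (YY1). The NRF1 letters were in 12 of the 75 (16.0%), beside 3.05% of 27025 genes with a window. The ETS letters were in 5 (6.67%), beside 4.31%, and the YY1 letters in 10 (13.3%), beside 3.19%. Uqcr11 alone held letters of more than 1 motif, and 49 genes held none. The YY1 letters and the NRF1 letters contain ATG and can therefore coincide with a start codon.

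Stretches of 100 bases are shown for genes on which the values below turn, each 5′ to 3′ on the strand of the gene with the matched letters in capitals: the carrier cytochrome c, a complex III subunit that holds both NRF1 and ETS letters, and pairs of complex I genes that share a motif and differ in direction. Overlapping matches on both strands form the longer capital run of Ndufaf5, and a further match of Ndufaf4 lies outside its stretch.
Cycs, NRF1, chr6:50566576-50566675, minus strand: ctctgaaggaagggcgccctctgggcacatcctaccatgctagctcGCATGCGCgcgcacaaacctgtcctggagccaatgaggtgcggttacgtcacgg
Uqcr11, ETS then NRF1, chr10:80406803-80406902, minus strand: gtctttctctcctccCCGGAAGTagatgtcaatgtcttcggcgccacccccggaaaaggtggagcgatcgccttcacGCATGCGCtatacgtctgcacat
Ndufaf4, NRF1, chr4:24898033-24898132, plus strand: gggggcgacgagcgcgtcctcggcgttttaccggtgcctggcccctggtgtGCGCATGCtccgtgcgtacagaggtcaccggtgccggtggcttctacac
Ndufaf5, NRF1, chr2:140170596-140170695, plus strand: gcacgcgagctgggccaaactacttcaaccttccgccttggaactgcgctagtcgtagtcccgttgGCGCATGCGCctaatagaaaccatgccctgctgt
Ndufs4, YY1, chr13:114388045-114388144, minus strand: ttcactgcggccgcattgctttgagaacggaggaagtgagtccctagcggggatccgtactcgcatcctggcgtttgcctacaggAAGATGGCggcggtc
Ndufs7, YY1, chr10:80249399-80249498, plus strand: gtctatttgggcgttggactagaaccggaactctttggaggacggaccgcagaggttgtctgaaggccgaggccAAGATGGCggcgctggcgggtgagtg

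The genes with a motif did not share 1 difference. The 12 with NRF1 letters had a median of -0.015 and ran from -0.39 to 0.39, the ends being Ndufaf4 and Ndufaf5, and 7 of them were below 0. Cycs differed by -0.07 and Uqcr11, a small complex III subunit, by 0.0024. The 60 measured genes with a window and no NRF1 letters had a median of -0.13, with 43 below 0. The 10 with YY1 letters had a median of -0.13, with 9 below 0, from -0.36 for Ndufs7 to 0.30 for Ndufs4, beside -0.09 and 41 of 62 for genes without them. The 5 with ETS letters had a median of -0.07, with 3 below 0, beside -0.12 and 47 of 67 without them.

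At the probe set used, most regulators known to drive respiratory chain genes read lower in CD36KO. Of 14 above the filter 12 were below 0, with a median of -0.23, 2 were at least 1.5-fold lower and none was at least 1.5-fold higher, beside 50.9% of all genes below 0, 3.31% lower and 5.31% higher at 1.5-fold. Esrrg, an orphan nuclear receptor active in oxidative tissue, read 4.38 in CD36KO and 5.76 in WT (-1.38). It passed the filter through WT alone, and its other probe sets were below it. Polrmt, the mitochondrial RNA polymerase, read 7.68 in CD36KO and 8.27 in WT (-0.59), with 0.05 at another probe set. Each of these calls rests on a single probe set. Of the 14 regulators, 9 lay within 1.2-fold (64.3%), beside 63.8% of all genes.

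The coactivator Ppargc1a, which docks on NRF1 and nuclear receptors, read 7.49 in CD36KO and 7.98 in WT (-0.49). Its 4 probe sets above the filter were all lower in CD36KO, from -0.83 to -0.28. Its relative Ppargc1b read 9.005 in CD36KO and 9.448 in WT. Nrf1 read 6.88 in CD36KO and 7.23 in WT and its probe sets ran from -0.80 to 0.38. Tfam, which packages and transcribes mitochondrial DNA, was level at 8.02 in CD36KO and 8.06 in WT. Gabpa (-0.26), Gabpb1 (-0.16) and Yy1 (-0.05) had other probe sets above the filter of opposite sign. These gave 0.09 for Gabpa, 0.23 for Gabpb1, and 0.01 and 0.24 for Yy1. Ppara differed by -0.25, with -0.19 and 0.05 at others, and Esrra by -0.04, with -0.55 at another. Pprc1 (0.25) and Tfb2m (0.15) were the members above WT at the probe set used.

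Assembly factors outside the name rule had a median of -0.14 over 36 genes, with 27 below 0 (75%), beside 50.9% of all genes. At 1.5-fold 1 of the 36 was lower and none was higher, beside 3.31% lower and 5.31% higher of all genes. That gene was Tmem186, a complex I assembly protein, at 6.33 in CD36KO and 7.01 in WT. Its other probe sets above the filter gave -0.41 and 0.06. Acad9, which acts in complex I assembly, differed by 0.56 (7.32 in CD36KO and 6.75 in WT), with -0.03 at another. Cox10, which makes the haem of complex IV, differed by -0.47, and Coa6, a copper factor of complex IV, by -0.41. Of the subunits encoded by mitochondrial DNA, ND5 of complex I was the 1 named here, at 10.71 in CD36KO and 10.48 in WT (0.23); the others were not analysed here.

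Of the pathways that feed and use the chain, the citric acid cycle, the carriers and glycolysis had medians near 0. Fatty acid beta-oxidation, which also feeds it, had a lower median and is given below. Enzymes of the citric acid cycle and pyruvate entry had a median of -0.05 over 18 genes, none past 1.5-fold, from Dlat (-0.48) to Idh2 (0.42). Idh3a, of the NAD-dependent isocitrate dehydrogenase, differed by 0.36 and the pyruvate carrier Mpc1 by 0.34. Carriers that exchange ATP, ADP and phosphate and the outer membrane channels had a median of -0.01 over 8 genes, from Vdac1 (-0.35) to the ADP/ATP carrier Slc25a4 (0.27). The ADP/ATP carrier Slc25a5 differed by 0.14. The inhibitor of ATP synthase Atpif1 and the mitochondrial creatine kinase Ckmt1 differed by -0.22 each. Glycolysis genes had a median of -0.02 over 13 genes. Hk2, a hexokinase that binds mitochondria, was 1.99-fold higher at 8.05 in CD36KO and 7.06 in WT, and Hk1, Aldoa and Pkm differed by 0.31, 0.19 and -0.14.

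Lists of similar kind had medians on both sides of that of the respiratory chain. Fatty acid beta-oxidation had a median of -0.17 over 17 genes, with 14 below 0 (82.4%), beside 50.9% of all genes. Its linear sum was 20592 in CD36KO and 23882 in WT, a ratio of 0.862. Acaa2, a thiolase of this pathway, was 1.64-fold lower (10.15 in CD36KO and 10.86 in WT), with -0.53 and 0.12 at other probe sets. Cpt2 differed by -0.47, Slc25a20 by -0.33 and Cpt1a by 0.54, with -0.23 at another probe set. Mitochondrial ribosomal proteins had a median of -0.02 over 76 genes and none past 1.5-fold, with Mrpl47 (-0.58), Mrpl41 (-0.52), Mrps15 (-0.47) and Mrps26 (-0.46) farthest from 0. Cytosolic ribosomal proteins had a median of 0.06 over 42 genes, 13 of them below 0, with Rpl12 (-0.65), Rpl27a (-0.57), Rps6 (-0.47) and Rps19 (0.42) farthest. The differences between these lists were not tested.

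**Figure D5:**
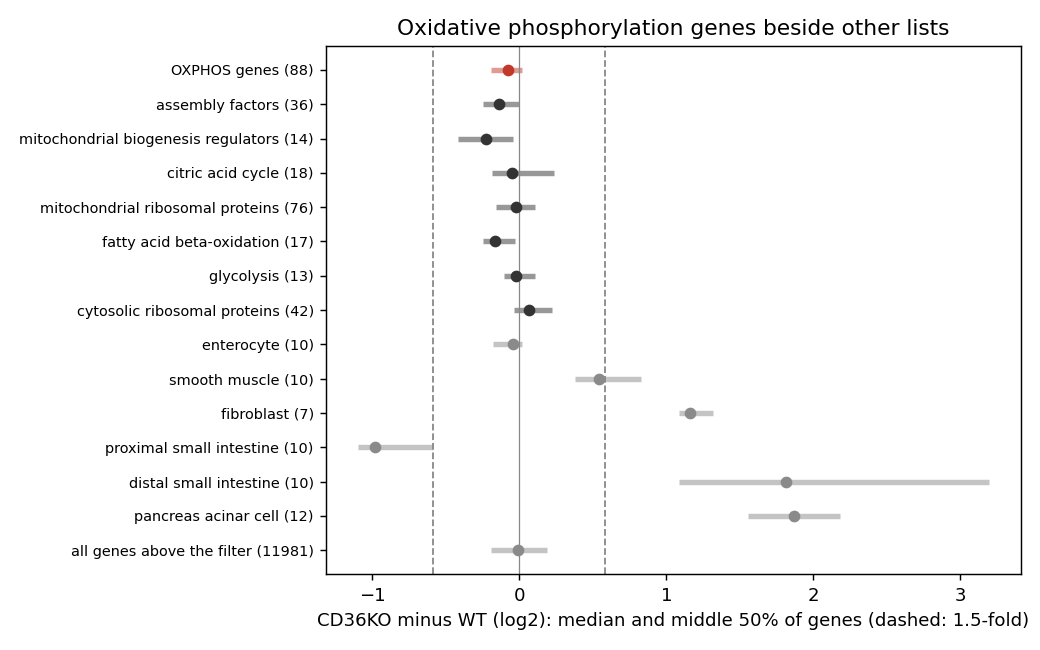
Median (point) and middle 50% (bar) of the CD36KO minus WT difference (log2) for the 88 oxidative phosphorylation genes (red), related pathways (dark), cell type and segment markers (light) and all genes above the filter, with the number of genes in brackets and dashed lines at 1.5-fold. The red bar lies inside 1.5-fold, with a median of -0.08, while the proximal segment list has a median of -0.98 and the distal list one of 1.82. The lists were chosen with earlier results of these data known.

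All 10 enterocyte markers were above the filter, as the tissue label requires, with a median of -0.04 and 7 of 10 below 0. Of all genes above the filter 50.9% were below 0, and of those with a mean level of 10 or more 56.4% were. The linear sum of the enterocyte markers was 79962 in CD36KO and 85417 in WT. Genes of the proximal small intestine had a linear sum of 17986 in CD36KO and 26047 in WT, and 7 of the 10 were at least 1.5-fold lower. Those of the distal small intestine had one of 17214 in CD36KO and 3493 in WT, and 9 of the 10 were at least 1.5-fold higher. Of all genes above the filter 3.31% were lower and 5.31% higher at 1.5-fold. Fibroblast markers (7 of 7 higher, median 1.16, linear sum 6314 in CD36KO and 2945 in WT) and pancreas acinar markers (12 of 12 higher, median 1.87, linear sum 29602 in CD36KO and 8166 in WT) were higher too. The brown adipocyte markers Ucp1, Cidea, Elovl3 and Dio2 were all below the filter, and Ucp1 read 3.33 in CD36KO and 3.45 in WT. Ppara, which was in that list and also among the regulators, was above the filter. The part of these markers, or of the differing 3' bias, in the lean of the respiratory chain genes was not tested. The marker lists were chosen with earlier results of these data known.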

How the data were processed

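The authors deposited 1 table of log2 values for 45101 probe sets on 2 Affymetrix arrays, made from 100 ng of total RNA per the labels' protocols. That the scale is log2 follows from the values, which run from 1.79 to 14.2. The sources used here do not give the summarization or normalization. Both array medians were 4.38. The array annotation gave 1 symbol to 34958 probe sets. All 92 members were found by identifier in the RefSeq gene table, with 0 symbols changed. Lists were matched by exact symbol.

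Differences, counts and medians were computed without further normalization, and no test was possible with 1 array per group. The members, lists, motifs and thresholds were chosen with earlier results of these data known. Named were, per complex, the genes with the highest and lowest difference, those past 1.5-fold, core subunits, isoforms and genes whose probe sets oppose each other by over 0.3 each way, and up to 4 genes per other list. Further genes were named after their values were seen. The choice of probe set and the fold call were tested on simulated arrays. The simulated shift was larger than any difference of the respiratory chain genes, so recovery of differences of their size was not tested. Figures were drawn with matplotlib 3.10.9, and values computed with statsmodels 0.14.6 (lowess), NumPy 2.4.6 and pandas 2.3.3 in Python 3.11.15.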

Additional observations from a re-analysis of the deposited data

How the results depend on the processing

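Values were recomputed with a lowess trend against level taken out (fraction 0.3), after quantile normalization or median centring, with probe sets averaged, with that of smallest absolute difference, without those of x or s suffix, unfiltered, with a 75th percentile filter, at 1.2-fold and 2-fold and, chosen after seeing the data, a mean level of 10 or more. The count of genes at least 1.5-fold higher was 0 under every one at that threshold. The count at least 1.5-fold lower was 2 except for 0 with the mean over probe sets, 0 with the smallest difference and 1 (Ndufa5) at a mean level of 10 or more. Without x and s probe sets the 2 were Ndufa5 and Ndufab1 (-0.72), and Cox7c was below the filter. At 1.2-fold 5 genes were higher and 14 lower, where 36.2% of all genes passed, and at 2-fold 0 were lower. The median of all members ran from -0.12 (75th percentile filter) to -0.029 (lowess). That of complex I was -0.037 and that of complex IV -0.020 with the smallest difference, and that of complex IV was -0.075 without x and s probe sets. The medians of complexes II, III and V changed sign under some alternatives, with ranges of -0.066 to 0.043, -0.058 to 0.013 and -0.099 to 0.0089. Under quantile normalization 66 of 88 genes were below 0, beside 54.4% of all genes. No paired analysis was possible because each group has 1 array, and for the same reason no replicate could be left out. Without detection calls, low values may hold no signal.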

Other observations

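A further 10 probe sets were assigned to several symbols, at least 1 of them of the respiratory chain, and were left out of all counts. Of these 8 were above the filter, with differences from -0.32 to 0.15 and a median of -0.038, and 0 passed 1.5-fold.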
